A study of Mus musculus with 12 samples.

Results

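The 10 genes described here encode apolipoproteins, the proteins that coat the particles in which fat and cholesterol travel through blood: Apoa1, Apoa2, Apoa4, Apoa5, Apob, Apoc1, Apoc2, Apoc3, Apoe and Apom. They were chosen by name, and each was found once among the 49398 gene rows by its Ensembl ID. All 10 passed the filter on low counts, as did 13814 genes in all. Livers came from 12 wild-type C57BL/6J mice, 9 months old at the start, given AIN-93G chow for 8 weeks with no added oil (control) or with 1% or 5% by weight of an oil concentrate of very-long-chain polyunsaturated fatty acids (VLCPUFA), and all were fasted for 5 hours and killed with tribromoethanol. Each diet had 4 libraries, from 2 females and 2 males, and each library is named by its animal number. Control livers were N979 and N980 (female) and N967 and N968 (male), 1% livers N983 and N984 (female) and N971 and N972 (male), and 5% livers N987 and N988 (female) and N975 and N976 (male). Lists of 4 values below follow that order. The series title states an interest in cardiometabolic risk factors, and the design asks how liver transcripts differ among the 3 diets. Whether mice shared a cage or litter is not given in the sources used here.

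Hepatocytes build very-low-density lipoprotein around a single large protein, apolipoprotein B, which microsomal triglyceride transfer protein loads with lipid. High-density lipoprotein forms when apolipoprotein A-I takes up lipid from cells. Smaller apolipoproteins exchange between particles and set their fate: apolipoprotein C-II activates lipoprotein lipase, A-V helps that enzyme act, C-III slows it and slows clearance, and E is the ligand by which liver receptors remove remnants. Apolipoprotein A-IV is made mainly by intestine and also by liver, and apolipoprotein M carries sphingosine-1-phosphate.

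The libraries held 5291385 to 15674130 estimated reads. In N979, 7.65% of transcript reads lay on 1 ribosomal RNA transcript, against 0.0498% to 0.384% in the other 11 libraries, and this transcript is not in the gene table. N988 had the highest share of the nuclear RNAs Malat1 and Neat1, 0.139%, followed by N979 at 0.0924%, with the other libraries at 0.0234% to 0.0711%. The liver label fitted its markers: the 12 hepatocyte markers summed to 113200 to 214400 CPM (counts scaled to the library's size) in each library, and 0 of the 12 passed the test described below in any diet contrast. By that test 8 of the 12 had an unadjusted p under 0.05 with 5% oil, against 14.6% of all genes. Of 10 intestinal markers, Alpi, Sis, Cdx1, Cdx2 and Muc2 had no read in any library, and Fabp2, which liver also makes, held nearly all reads of the other 5. In whole liver, fewer cells of a type and less RNA per cell cannot be told apart.

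The 10 genes together took 3.81% ± 1.01 (SD, n = 4) of all reads in control livers, 4.31% ± 0.39 with 1% oil and 3.62% ± 0.77 with 5% oil, and these ranges overlapped. N979 had the highest share, 5.25%. Levels per length, which allow genes to be compared, were computed as TPM, the share of all transcripts by number, from annotated transcript lengths. Apoa2, the second major protein of high-density lipoprotein, was highest in control livers at 27110 ± 5617 TPM (SD, n = 4). Apoc1 at 14980 ± 6307 and Apoe at 13850 ± 2716 came next and overlapped each other, and the Apoc1 range also reached that of Apoa2. Apoc3 at 6953 ± 2704 and Apoa1 at 6654 ± 2021 overlapped each other, and Apoc3 reached the lowest Apoc1 value. Apob followed at 1332 ± 380.6 TPM, and its lowest library overlapped the highest of Apoc2 and Apoa4. Apoc2 at 629.9 ± 199.8, Apoa5 at 495.6 ± 112.5 and Apoa4 at 469.5 ± 371.1 could not be ordered beyond their spread. Apom was lowest, at 150.5 ± 69.4 TPM, and its range of 79.96 to 242.9 lay within that of Apoa4. With 5% oil Apoa4 became the lowest of the 10, at 28.76 ± 8.328 TPM. Across the 4 control livers Apoa4 ranged from 73.96 to 954.6 TPM, a wider relative range than that of any other member.

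**Figure D1:**
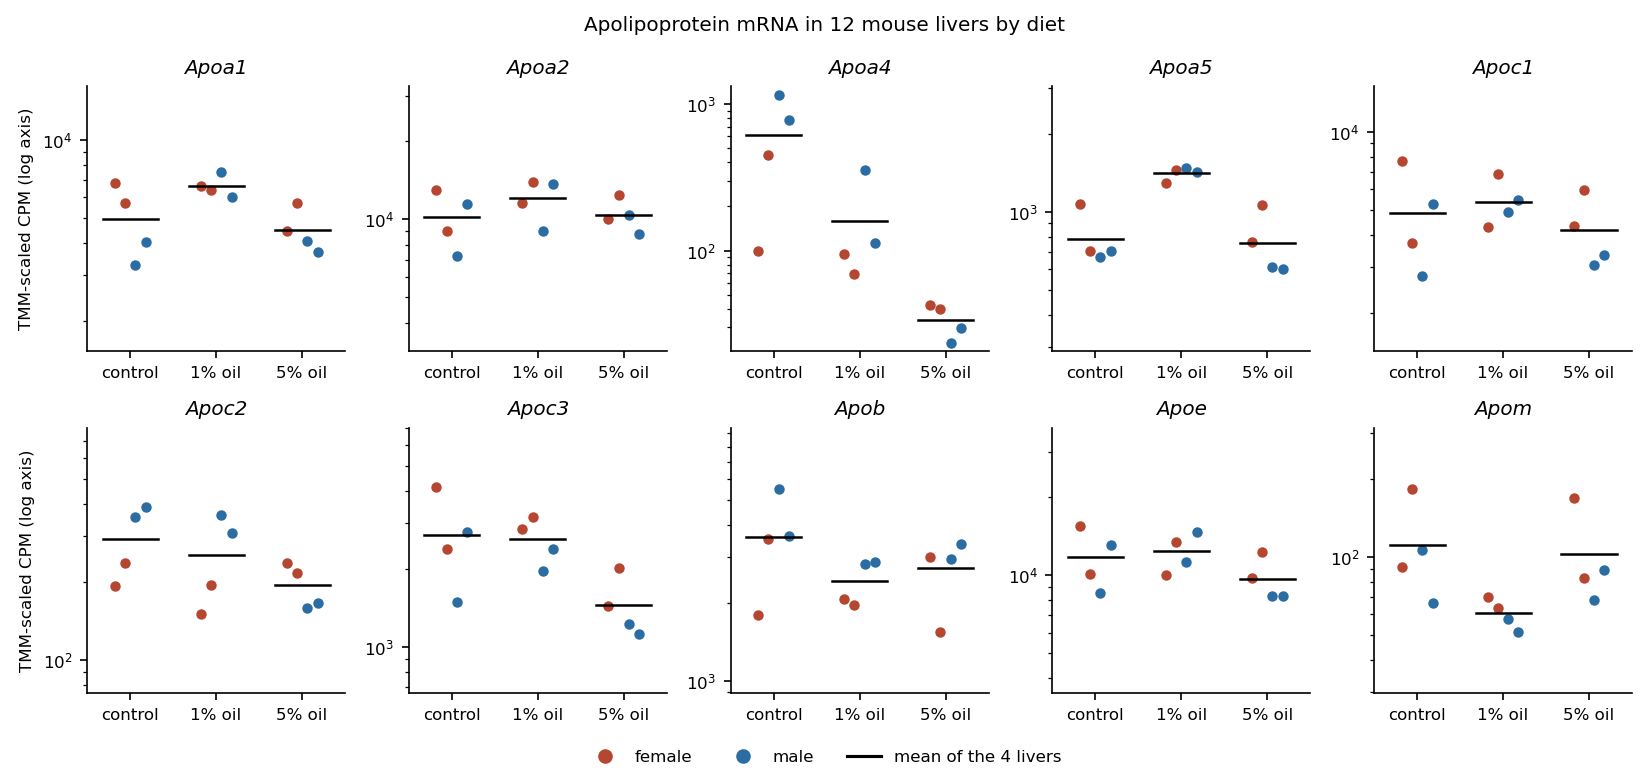
Library-scaled CPM of the 10 apolipoprotein genes on log axes, 1 point per liver, by diet and sex, with the mean of the 4 livers as a line. Apoa4 with 5% oil lay at 23.61 to 42.49 CPM, below every control and every 1% liver, and Apoa5 with 1% oil lay at 1285 to 1472 CPM, above every other liver.

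Apoa4 and Apoc3 were lower with 5% oil than in control livers, and Apoa5 was lower with 5% than with 1% oil. No other member passed the test in any diet contrast, and none passed in 1% oil against control. Diets were compared with edgeR's quasi-likelihood test across all genes, with sex as a term, and a gene passed at a Benjamini-Hochberg adjusted p under 0.05. With 5% oil against control 2 of 10 members passed, both lower, where 2.46% of all tested genes passed and 1.27% passed as lower. The members' median log2 fold change was -0.26, against 0.01 over all genes and -0.45 over the 12 hepatocyte markers. Of the members' estimates, 9 of 10 were below 0. That count depended on the scaling and on the control N979. With library totals alone the median over all genes moved to 0.17, and 6 of 10 member estimates were below 0. All-gene calls then split into 317 higher and 111 lower, against 164 and 176 with TMM scaling. With TMM scaling but without N979, 6 member estimates were below 0 and 4 above. Limma on the deposited CPM gave 5 below and 4 above, with a median of -0.06.

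With 1% oil 0 of 10 members passed by edgeR, where 0.224% of all genes passed. At an unadjusted p under 0.05 there were 5 members, against 11.1% of all genes. DESeq2 called 1 member, where it called 266 of 13814 genes, and limma voom called 0, where it called 42. The members' median log2 fold change was 0.02, with 5 estimates above 0 and 5 below. With 5% against 1% oil 1 of 10 members passed, where 1.33% of all genes passed, and the median log2 fold change was -0.39 against 0 over all genes. For the dose trend, a straight line on percent of oil, 2 of 10 members passed, Apoa4 and Apoc3, where 2.23% of all genes passed. These contrasts share livers of the control, 1% or 5% diet, so their values are not independent.

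**Figure D2:**
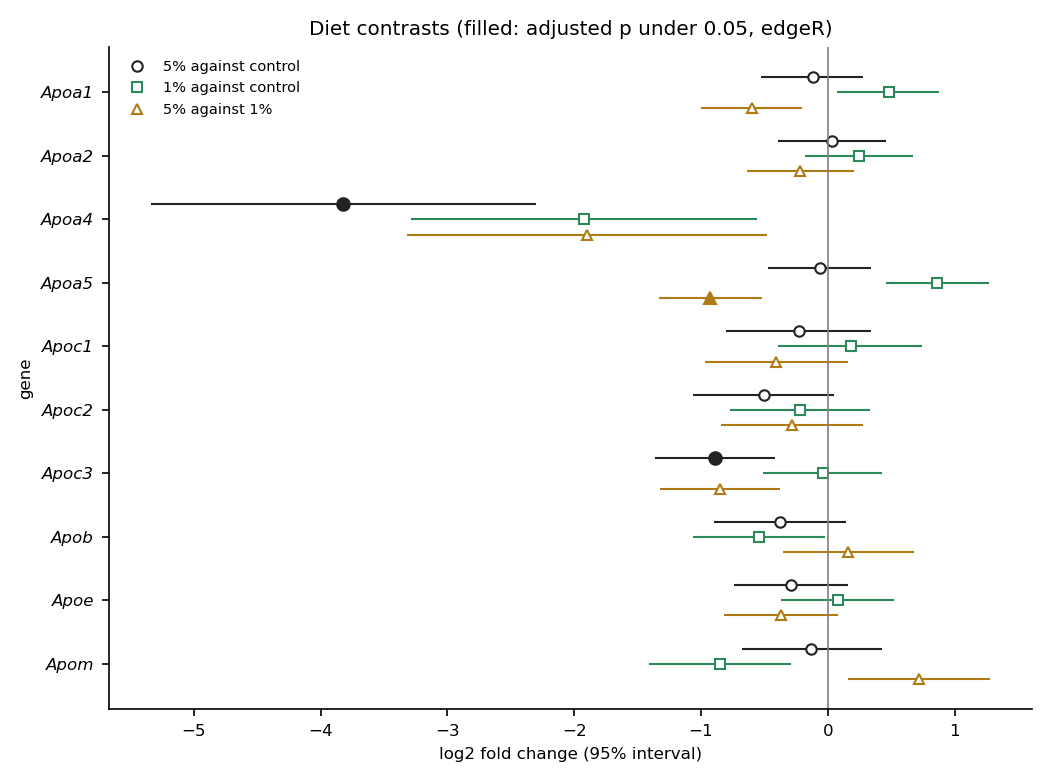
Log2 fold changes of the 10 genes for 5% against control, 1% against control and 5% against 1%, with 95% intervals, and filled symbols where edgeR's adjusted p was under 0.05. Apoa4 and Apoc3 are filled for 5% against control and Apoa5 for 5% against 1%, and the interval of Apoa4 is the widest, from -5.34 to -2.30.

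Apoa1, Apoc3, Apoa4 and Apoa5 lie in 1 cluster on chromosome 9, in that order. RefSeq's promoter table, on build GRCm38.p6, held starts for 8 of the 10 genes, all but Apoc1 and Apoc3. The 250 bases before the start are shown for the 3 cluster genes with an entry, since these are the genes whose libraries separated by diet. All are on the plus strand, written 5′ to 3′, with capitals marking matches to the motifs searched.
Apoa1, chr9:46228380-46228629: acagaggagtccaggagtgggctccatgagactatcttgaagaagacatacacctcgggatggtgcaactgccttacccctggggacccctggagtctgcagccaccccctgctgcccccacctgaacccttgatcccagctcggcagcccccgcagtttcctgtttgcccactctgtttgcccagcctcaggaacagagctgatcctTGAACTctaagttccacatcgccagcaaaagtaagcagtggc
Apoa4, chr9:46240594-46240843: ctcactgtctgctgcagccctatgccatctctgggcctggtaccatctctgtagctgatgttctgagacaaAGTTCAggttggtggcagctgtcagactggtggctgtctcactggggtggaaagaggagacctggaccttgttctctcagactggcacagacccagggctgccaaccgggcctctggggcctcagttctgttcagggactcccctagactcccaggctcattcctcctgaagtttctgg
Apoa5, chr9:46268358-46268607: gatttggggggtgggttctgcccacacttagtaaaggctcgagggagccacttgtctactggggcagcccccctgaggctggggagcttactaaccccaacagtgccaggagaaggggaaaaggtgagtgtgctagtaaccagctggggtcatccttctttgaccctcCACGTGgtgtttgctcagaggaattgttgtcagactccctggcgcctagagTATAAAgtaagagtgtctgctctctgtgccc
The searched letters, on both strands, were the TATA box TATAAA, the nuclear receptor half-site AGGTCA with its variant spelling AGTTCA, the E-box CACGTG, the forkhead core TGTTTAC, the HNF1 half-site GTTAAT, the C/EBP core TTGCGCAA, the cAMP response element TGACGT and the HNF4 core CAAAGTCCA. None of these spellings contains another. The Apoa4 window held AGTTCA 179 bases before the start, and the Apoa1 window held it on the opposite strand, ending 37 bases before the start. AGTTCA was present in 11.8% of all 32851 promoter windows of this length. The Apoa5 window held CACGTG, present in 6.02% of windows, and TATAAA, present in 12.4%, the latter beginning 31 bases before the start. RefSeq lists a further Apoa5 start downstream, whose window overlaps the one shown.

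Apoa4 showed the widest separation by diet. Control livers had 99.9, 446.5, 1152 and 771.2 CPM, after TMM scaling of the libraries. Livers with 1% oil had 94.65, 69.65, 355.8 and 112.5 CPM, and livers with 5% oil had 42.49, 39.76, 23.61 and 29.57 CPM. The 5% libraries lay below all others, while the 1% libraries overlapped the controls through the control N979, below N971 and N972. Means were 617.4 ± 449.6, 158.2 ± 132.9 and 33.86 ± 8.807 CPM (SD, n = 4 each). With 5% oil the gene fell by 3.82 on the log2 scale (SE 0.69, 95% interval -5.34 to -2.30), 14.1-fold, with an adjusted p of 0.0185 by edgeR. The trend on dose was -0.71 ± 0.14 (SE) log2 per percent of oil, adjusted p = 0.0326 by edgeR.

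For 1% oil against control the Apoa4 estimate was -1.92 ± 0.62 (SE), adjusted p = 0.276, and for 5% against 1% it was -1.90 ± 0.64, adjusted p = 0.167, both by edgeR. Neither passed, although all 4 livers with 5% oil lay below all 4 with 1%. Leaving out N980, N976, N987 or N988 ended the 5% call in edgeR, with adjusted p of 0.106, 0.0849, 0.0553 and 0.055, while the estimate stayed between -4.09 and -3.5. Without N979, the low control, the estimate was -4.27 and edgeR's adjusted p 0.00832. The trend call was lost on leaving out any of 7 libraries (N968, N971, N975, N976, N980, N987 or N988), with adjusted p up to 0.156 by edgeR and slopes of -0.77 to -0.63. In the authors' deposited table of 261 genes, whose contrast is not named, Apoa4 was the only member, with a log2 fold change of -2.67 and an adjusted p of 0.0112.

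By sex, Apoa4 in males fell by 5.17 on the log2 scale with 5% oil (SE 0.77, edgeR adjusted p = 0.0416), where 0.181% of all genes passed in males. In females the estimate was -2.73 ± 0.69 (SE), edgeR adjusted p = 0.0829, where 1.85% of all genes passed. Each sex had 2 livers per diet. The difference between the sexes was 2.44 ± 0.93 (SE), edgeR adjusted p = 0.91, so a sex difference in this response was not shown. With 5% oil both male livers (23.61 and 29.57 CPM) were below both female livers (39.76 and 42.49 CPM), and in control livers both males were above both females.

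Apoa5 was highest with 1% oil. Control livers had 1066, 703.4, 667.9 and 703.7 CPM. Livers with 1% oil had 1285, 1441, 1472 and 1426 CPM, and livers with 5% oil had 761.3, 1059, 609.5 and 598.2 CPM. All 1% libraries lay above all libraries of both other diets, which overlapped each other. Means were 785.4 ± 188.1, 1406 ± 82.86 and 757 ± 214.7 CPM (SD, n = 4 each). From 1% to 5% oil the gene fell by 0.93 on the log2 scale (SE 0.19, 95% interval -1.33 to -0.52), 1.90-fold, with an adjusted p of 0.039 by edgeR. From control to 1% oil the estimate was 0.86 ± 0.19 (SE, 95% interval 0.46 to 1.27), and edgeR's adjusted p of 0.0774 missed the threshold. It passed by DESeq2 at 0.00127 and in edgeR without N979 at 0.0253, where the estimate was 0.99. From control to 5% oil the estimate was -0.06 ± 0.19 (SE), edgeR adjusted p = 0.935.

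The call for 5% against 1% was lost in edgeR without any of N967, N968, N971, N972, N976, N983, N984 or N987, with estimates from -1.02 to -0.85 and adjusted p from 0.0512 to 0.145. With the ratio of the long to the short Apob transcript as a covariate, described below, the estimate was -0.69 and edgeR's adjusted p 0.351.

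Apoc3, whose product slows lipolysis and remnant uptake, had 4149, 2396, 1494 and 2772 CPM in control livers. Livers with 1% oil had 2862, 3177, 1974 and 2389 CPM, and livers with 5% oil had 1437, 2023, 1230 and 1118 CPM. Of the 5% livers 3 lay below every control, and N988 at 2023 lay above the control N967. With 5% oil the gene fell by 0.89 on the log2 scale (SE 0.22, 95% interval -1.36 to -0.42), 1.85-fold, with an edgeR adjusted p of 0.0499, just inside the threshold. In 20 of 28 alternative settings the call was lost, with estimates over the 28 from -1.04 to -0.68 and adjusted p from 0.00269 to 0.207. Among these, leaving out N968, N971, N972, N975, N976, N979, N983, N984, N987 or N988 gave edgeR adjusted p of 0.0638 to 0.179. The trend on dose was -0.19 ± 0.04 (SE) log2 per percent, edgeR adjusted p = 0.0378, and was lost in 14 of 27 settings. For 5% against 1% the estimate was -0.85 ± 0.22 (SE), edgeR adjusted p = 0.0749. That contrast passed in 5 of 28 alternative settings, DESeq2 and edgeR without N979 among them. Over the 28 its estimates ran from -0.97 to -0.43 and adjusted p from 0.00359 to 0.62. For 1% against control the estimate was -0.04 ± 0.22.

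Apoa1, the main protein of high-density lipoprotein, had 6809, 5709, 3287 and 4022 CPM in control livers. Livers with 1% oil had 6647, 6417, 7485 and 6042 CPM, and livers with 5% oil had 4444, 5688, 4051 and 3703 CPM. Every 5% library was below every 1% library, and both overlapped the controls, whose 2 females were above both males. For 5% against 1% the estimate was -0.60 ± 0.19 (SE), edgeR adjusted p = 0.128, and DESeq2's adjusted p was 0.0302. For 1% against control it was 0.48 ± 0.19 (SE), edgeR adjusted p = 0.381. Apoa1, Apoa4 and Apoa5 were thus the 3 of 10 members whose 5% libraries did not overlap the 1% libraries, where 7.65% of all genes showed such a separation. Against control it was 1 of 10 with 5% oil (Apoa4), where 6.08% of all genes were separated, and 1 of 10 with 1% oil (Apoa5), where 3.87% were.

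The neighbours of the chromosome 9 cluster gave a comparison within the same region. Zpr1, next to Apoa5, had an estimate of 0.45 ± 0.21 (SE) with 1% oil and -0.74 ± 0.21 for 5% against 1% oil, with an edgeR adjusted p of 0.0997 for the latter. Bud13, the next gene, had -0.38 ± 0.27 (SE) with 5% oil, and neither gene passed in any diet contrast. Antisense genes overlap Apoa4 and Apoa5, and whether counting used strand is not given in the sources used here. These antisense genes held 25 reads (Gm10680) and 34 reads (Gm47544) over all 12 libraries.

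Apoc1, Apoc2 and Apoe lie in a cluster on chromosome 7. Apoe had 15550, 10070, 8512 and 13060 CPM in control livers, 10060, 13480, 11200 and 14670 with 1% oil, and 9769, 12300, 8351 and 8326 with 5% oil. Its diets overlapped, with an estimate of -0.29 ± 0.21 (SE, 95% interval -0.74 to 0.16) for 5% against control. Apoc1, an inhibitor of lipoprotein uptake, had diet means of 4853 ± 2141, 5366 ± 1099 and 4175 ± 1312 CPM (SD, n = 4 each) and an estimate of -0.23 ± 0.26 (SE) for 5% oil. For both genes N979 was the highest of the 12 libraries, at 15550 CPM for Apoe and 7679 CPM for Apoc1. Apoc4, which lies between Apoc1 and Apoc2, had an estimate of -0.24 ± 0.24 (SE) with 5% oil and did not pass.

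Apoc2, the activator of lipoprotein lipase, had 192.2, 237.6, 355.6 and 388.1 CPM in control livers. Livers with 1% oil had 150.3, 194.7, 361.5 and 308.4 CPM, and livers with 5% oil had 236.3, 216.5, 158.1 and 165.6 CPM. Males were above females in control and 1% livers, and below them in 5% livers. In males the 5% estimate was -1.20 ± 0.22 (SE), edgeR adjusted p = 0.0752, and in females 0.07 ± 0.22. The difference between the sexes was 1.27 ± 0.31 (SE), with an unadjusted p of 0.00148 and an adjusted p of 0.538 by edgeR. By DESeq2 its adjusted p was 0.0335. Over both sexes the 5% estimate was -0.50 ± 0.26 (SE), edgeR adjusted p = 0.406. A readthrough gene, Gm44805, overlaps Apoc2 and held 1629 reads over the 12 libraries, so the split of reads between them is uncertain.

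Tests of a sex difference in the diet response called 0 of 10 members by edgeR for 5% oil and for 1% oil, where 0% of all genes passed in either. At an unadjusted p under 0.05 there were 2 members for 5% oil, Apoa4 and Apoc2, against 4.67% of all genes. For 1% oil there was 1, Apoa1, against 3.74% of all genes. DESeq2 called 1 member for 5% oil and 0 for 1% oil, where it called 34 of 11671 and 6 of 13814 genes. Between females and males over all diets, 0 of 10 members passed by edgeR, where 8.94% of all genes passed. At an unadjusted p under 0.05 there were 4 members, against 28.7% of all genes. DESeq2 called 2 members, where it called 2079 of 13814 genes. The largest of those 4 in size was Apob, with an estimate of -0.58 ± 0.20 (SE) in females against males and an edgeR adjusted p of 0.0776. Apoc3 at 0.55 ± 0.18 and Apom at 0.55 ± 0.21 (SE) were estimated higher in females, with edgeR adjusted p of 0.0684 and 0.111. Apoa1 was estimated at 0.37 ± 0.15 (SE), edgeR adjusted p = 0.133.

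**Figure D3:**
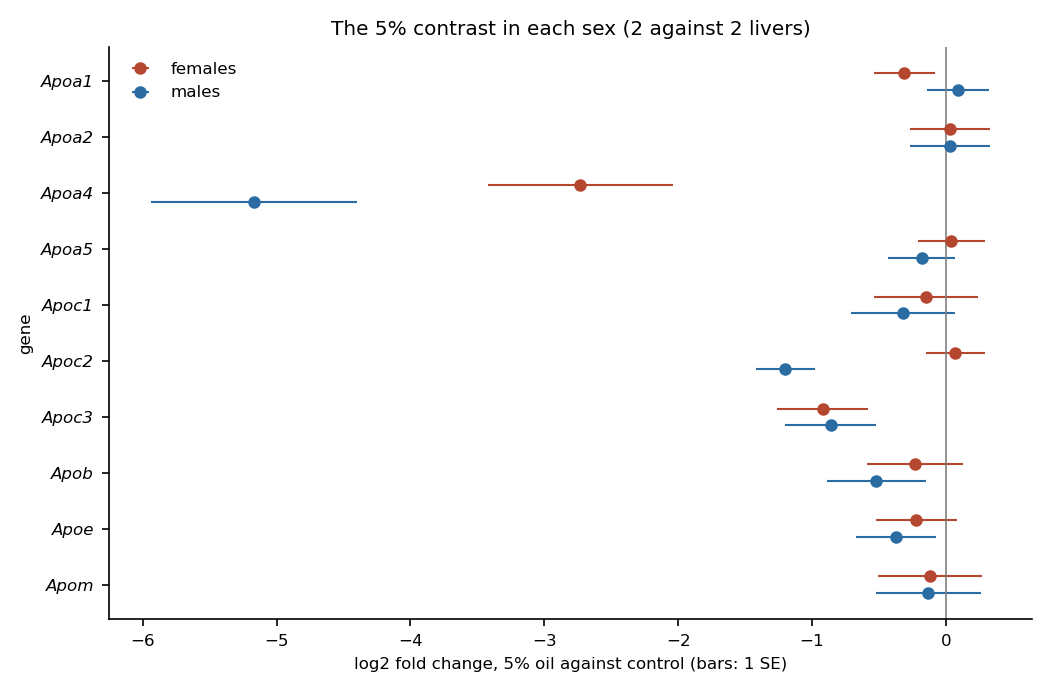
Log2 fold changes for 5% oil against control in females and in males, 2 livers against 2 in each sex, with bars of 1 SE. Apoa4 lies at -2.73 in females and -5.17 in males, Apoc2 at 0.07 and -1.20, and the other 8 genes have estimates that differ between the sexes by less than the sum of their SEs.

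Apob and Apom had their lowest means with 1% oil. Apob had 1791, 3524, 5477 and 3601 CPM in control livers, 2064, 1959, 2812 and 2871 with 1% oil, and 3002, 1538, 2955 and 3360 with 5% oil. The diets overlapped, with N979 and N988 the lowest of all 12 libraries. The estimates were -0.54 ± 0.24 (SE) for 1% and -0.38 ± 0.24 for 5% oil, with edgeR adjusted p of 0.437 and 0.531. Apom had 91.2, 182.5, 106.4 and 66.47 CPM in control livers, 70.03, 63.56, 57.8 and 51.28 with 1% oil, and 169.3, 82.61, 68.18 and 89.08 with 5% oil. Only N983, at 70.03, kept the 1% libraries from lying below all others. The estimate for 1% oil was -0.85 ± 0.26 (SE, 95% interval -1.41 to -0.29), edgeR adjusted p = 0.237, and for 5% against 1% it was 0.72 ± 0.26, adjusted p = 0.174. Without both N979 and N988, Apob at -0.75 and Apom at -1.0 passed for 1% against control, with edgeR adjusted p of 0.0449 and 0.0346.

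The split of Apob reads between transcripts varied between livers. Apob-202, the full-length transcript of 13934 bases, took 25.93% to 34.05% of Apob reads with 1% oil, 32.17% to 61.6% in control livers and 26.4% to 62.07% with 5% oil. Nearly all other Apob reads were assigned to Apob-203, of 2174 bases, whose exons are those of the 3′ end. With the log2 ratio of both transcripts as a covariate in edgeR, the 1% estimates became -0.11 for Apob and -0.38 for Apom. That ratio is made from Apob's own reads, so for Apob it is not an independent covariate. The long transcript over the short was 0.35 to 0.516 with 1% oil, against 0.474 to 1.75 in control livers. Ratio and diet therefore cannot be told apart in these 1% estimates. Apoa4 stayed at -3.82 for 5% oil with that covariate, edgeR adjusted p = 0.0322.

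Apoe reads were spread over 11 annotated transcripts, chiefly Apoe-209 of 1104 bases and Apoe-206 of 1408 bases, which has an upstream first exon and a longer 3′ end. Apoe-206 took 31.2%, 39.03%, 30.66% and 39.82% of Apoe reads in control livers. With 1% oil it took 30.15%, 39.21%, 36.11% and 41.34%, and with 5% oil 16.29%, 25.84%, 25.61% and 17.49%. All 5% livers lay below all other livers, a separation seen after looking through the transcripts and given with no test. Means were 35.2% ± 4.9, 36.7% ± 4.9 and 21.3% ± 5.1 (SD, n = 4 each). Apoe-209 took 54.1% ± 9.7, 60.7% ± 4.9 and 63.4% ± 3.3 of the reads, with overlapping ranges. The processed transcript Apoe-202 ranged from 0% to 23.83% in control livers and from 0% to 3.04% with 1% oil. With 5% oil it ranged from 5.02% to 19.03%, above all 1% livers, and how many of all transcripts separate so was not counted. Its share was highest in the control N967, then in N976, N987 and N975 at 19.03%, 17.88% and 12.37%. These livers also had the highest ratios of the long to the short Apob transcript, 1.75, 1.64, 1.23 and 0.896. N988 had 5.02% at a ratio of 0.359, and the part of that ratio in the Apoe shares was not tested. Shares of transcripts that overlap are estimates, with no count of reads unique to each.

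**Figure D4:**
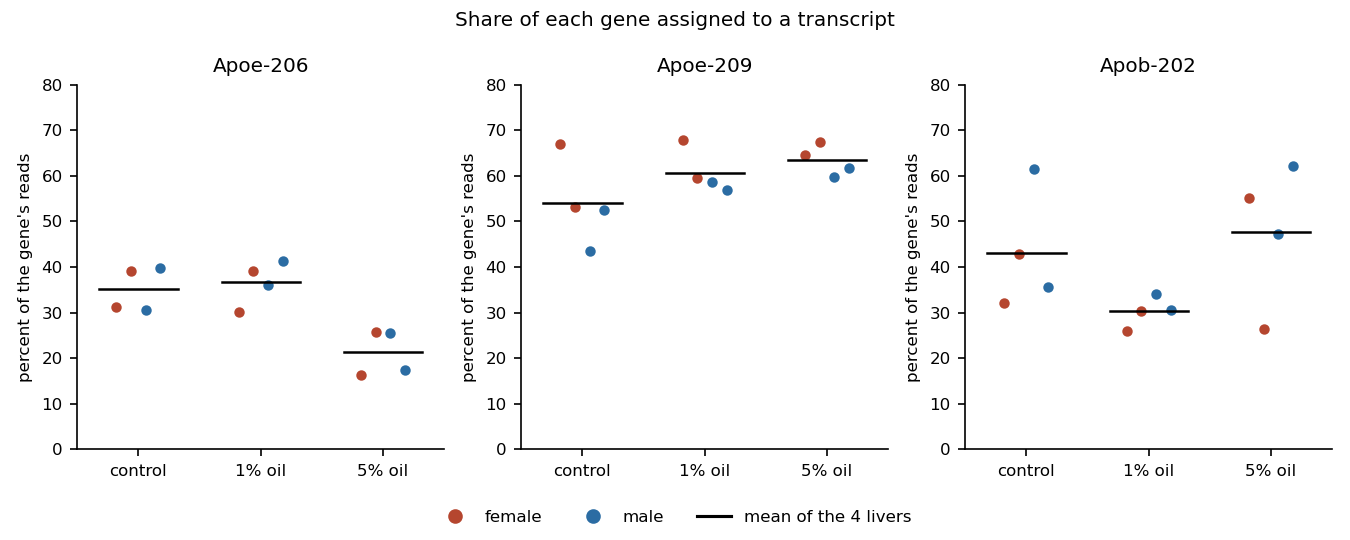
Percent of each gene's reads assigned to Apoe-206, Apoe-209 and Apob-202 in each liver, by diet and sex, with the mean of 4 livers as a line. Apoe-206 with 5% oil lay at 16.29% to 25.84%, below the 30.15% to 41.34% of the other 8 livers, while Apob-202 ranged widely in control and 5% livers.

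Other members showed smaller differences in transcript use. Apoa2-201 took 51.2% ± 1.3, 52.2% ± 0.4 and 54.7% ± 1.7 of Apoa2 reads (SD, n = 4 each). Apoa2 itself did not pass in any contrast, with means of 10190 ± 2536, 12080 ± 2299 and 10420 ± 1517 CPM and an estimate of 0.03 ± 0.20 (SE, 95% interval -0.39 to 0.46) for 5% oil. Apoc3-205, a processed transcript that lacks the exon with the start codon, took 32.91%, 24.83%, 13.21% and 15.2% with 1% oil, against 7.66% to 17.74% in control livers. Apoc2-202 took 31.8% in N979 and 28.43% and 24.67% in the female 1% livers, and at most 13.31% elsewhere. Apoa4 and Apom had 1 annotated transcript each.

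Over 10558 named genes whose mean log2 CPM reached 1, those whose log2 CPM after removing the sex means followed Apoa4 most closely over the 12 libraries were Arsg (r = 0.975), Lgals8 (r = 0.952) and Ntrk2 (r = 0.940). With 5% oil against control the log2 fold change was -4.66 for Ntrk2 and -1.19 for Arsg, given with no test since both were picked for their likeness over the same livers. For Apoa5 they were Plscr3 (r = 0.901), Sun2 (r = 0.896) and Mlycd (r = 0.887), and for Apoc3 they were C8g (r = 0.967), Agmat (r = 0.966) and Rarres2 (r = 0.962). That of C8g was -0.86. These correlations are descriptions: the libraries share diets, depth and RNA quality.

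Among 14 tested apolipoproteins and related proteins outside the 10, 5 were lower with 5% oil and 0 higher, with a median log2 fold change of -0.59. Over all tested genes 1.27% passed as lower and 1.19% as higher. Apof had 808.6, 706.5, 489.6 and 681.5 CPM in control livers and 306.3, 316.7, 315.2 and 308.3 with 5% oil. It fell by 1.10 (SE 0.15), edgeR adjusted p = 0.00282, and from 1% to 5% oil it fell by 0.87, adjusted p = 0.0238. Apon fell by 0.80, Apol7a by 0.69 and the acute-phase apolipoprotein gene Saa2 by 1.93 on the log2 scale, with edgeR adjusted p of 0.0136, 0.0297 and 0.02. Reads of Saa2 and Apol7a are shared out among near-identical copies, so their own values are uncertain. With 1% oil 0 of 14 passed by edgeR, where 0.224% of all genes passed, while DESeq2 called Saa2 and Apol7a. Of the 14, 5 had an unadjusted p under 0.05 by edgeR, against 11.1% of all genes. The 5% call of Apol7a was lost in 14 of 28 alternative settings, among them N967, N968, N975, N976, N980, N984, N987 or N988 left out. That of Apon was lost in 5, among them without N968, N976 or N988, and that of Saa2 in 5, among them without N968, N980 or N988. The highest adjusted p over the 28 were 0.0691 for Apon, 0.121 for Apol7a and 0.0948 for Saa2, and the call of Apof held in all 28.

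In lipoprotein assembly and secretion, 2 of 21 tested genes were higher with 5% oil and 0 lower by edgeR. Of all genes 1.19% passed as higher and 1.27% as lower. With 1% oil 0 passed by edgeR, where 0.224% of all genes passed, and 8 had an unadjusted p under 0.05, against 11.1%. At that dose Cidec passed by DESeq2, with no filter and without N983, and Sort1 with no filter. Sort1, a sorting receptor that binds apolipoprotein B, rose by 1.59 ± 0.33 (SE) and Cidec, a lipid droplet protein, by 1.75 ± 0.38 on the log2 scale, with edgeR adjusted p of 0.0213 and 0.0309. Mttp, which loads lipid onto apolipoprotein B, was estimated at 0.50 ± 0.26 and Apobec1, the editing enzyme that shortens it, at -0.34 ± 0.22, neither passing. For 5% against 1% oil Lman1, Dgat2 and Pdia4 were higher. The Sort1 call was lost without N976 and the Cidec call without N968, N980, N984, N987 or N988, and the highest adjusted p over 28 settings were 0.0814 and 0.808.

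In receptors and uptake, 1 of 16 tested genes was higher with 5% oil and 1 lower. Of all genes 1.19% passed as higher and 1.27% as lower. Vldlr, a receptor for triglyceride-rich particles, rose by 0.89 and Sdc1, a proteoglycan that binds remnants, fell by 1.02 with 5% oil, with edgeR adjusted p of 0.0251 and 0.0231. The calls of Vldlr and Sdc1 were lost without N968, N976 or N980, that of Vldlr also without N987 and that of Sdc1 without N988, and both also with no sex term. Over 28 alternative settings their adjusted p reached 0.539 and 0.0933.

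In plasma lipolysis, 2 of 14 tested genes were higher with 5% oil and 0 lower, where 1.19% and 1.27% of all genes were. Lpl, lipoprotein lipase, had 9.065, 19.4, 17.55 and 17.08 CPM in control livers, 25.32, 23.74, 210.3 and 81.65 with 1% oil and 79.68, 87.69, 148.9 and 104 with 5% oil. All libraries of both oil diets lay above the controls, and with 5% oil it rose by 2.68 (SE 0.50), edgeR adjusted p = 0.0185. Lpl and Cidec are also adipocyte genes: 0 of 3 tested adipocyte markers passed, and the 7 markers summed to 8.159 to 36.66 CPM in control livers, 10.73 to 174.5 with 1% oil and 8.674 to 84.12 with 5% oil, and their part was not tested. Lipg, endothelial lipase, rose by 1.62, edgeR adjusted p = 0.0499, and its call was lost in 17 of 28 settings. Lipc at -0.38 and Angptl4 at -0.44 did not pass. The Lpl call was lost without N967, N968, N979, N987 or N988, and its adjusted p over 28 settings reached 0.168.

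In high-density lipoprotein formation, 1 of 14 tested genes passed with 5% oil, Lipg, where 2.46% of all genes passed. With 1% oil 0 passed by edgeR, where 0.224% of all genes passed, and 2 of 14 had an unadjusted p under 0.05, against 11.1%. Abca1, which hands lipid to apolipoprotein A-I, was at 0.49 ± 0.27 (SE), Lcat, which esterifies the cholesterol, at 0.14 ± 0.14, Pltp, a phospholipid transfer protein, at 0.92 ± 0.38, and Scarb1, the receptor for these particles, at -0.36 ± 0.20 for 5% oil.

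Of 36 tested regulators of apolipoprotein transcription, 2 were higher and 3 lower with 5% oil by edgeR. Of all genes 1.19% passed as higher and 1.27% as lower. With 1% oil 0 passed by edgeR, where 0.224% of all genes passed, and 11 had an unadjusted p under 0.05, against 11.1%. At that dose Nr1d2 passed in 14 of 28 alternative settings, Dbp in 6 and Nfil3 in 3, DESeq2 among them for each. Hnf4a at 0.14 ± 0.18 (SE), Creb3l3 at 0.12 ± 0.19 and Ppara at 0.25 ± 0.27, which encode known activators of members of the set, did not pass with 5% oil. Nr1h3 at -0.16, Srebf1 at 0.91 and Nr1d1 at 0.89 did not pass either. The genes that passed were the clock output gene Dbp, up by 5.36 ± 0.83, the clock repressor gene Nr1d2, up by 1.19 ± 0.19, Nfil3, which opposes Dbp and fell by 2.09, Foxo3, which fell by 1.01, and Ppargc1a, which fell by 1.64. Their edgeR adjusted p were 0.00919, 0.00572, 0.0075, 0.038 and 0.0425. The Foxo3 call was lost in 12 of 28 settings and that of Dbp in 2, with adjusted p of up to 0.127 and 0.166. Dbp had only 0.1567 to 1.1 CPM in control livers, so the size of its fold change is uncertain. Its estimate ran from 2.51 to 5.9 over the 28 settings. The hour at which livers were taken is not given in the sources used here, and its part was not tested.

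PPARA is the nuclear receptor that senses fatty acids, and Apoa5 and Apoc3 are among the genes it is known to regulate. Of 20 tested targets, 8 were higher and 1 lower with 5% oil, and 5 higher and 0 lower with 1% oil, with medians of 0.41 and 0.58. Over all genes 1.19% were higher and 1.27% lower with 5% oil, and 0.138% higher and 0.0869% lower with 1% oil. Acot1 rose by 2.46 with 5% and 2.5 with 1% oil, and Cyp4a10 by 2.56 and 2.55, with edgeR adjusted p from 3.02e-05 to 0.000751. Ehhadh rose by 2.34 with 5% oil and Acot2 by 1.87 with 1% oil. These genes were named for their small p. Estimates over the 20 targets ran from -1.46 to 2.57 with 5% oil and from -1.52 to 2.55 with 1% oil. Reads of the Cyp4a and Acot copies are shared out by estimation.

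**Figure D5:**
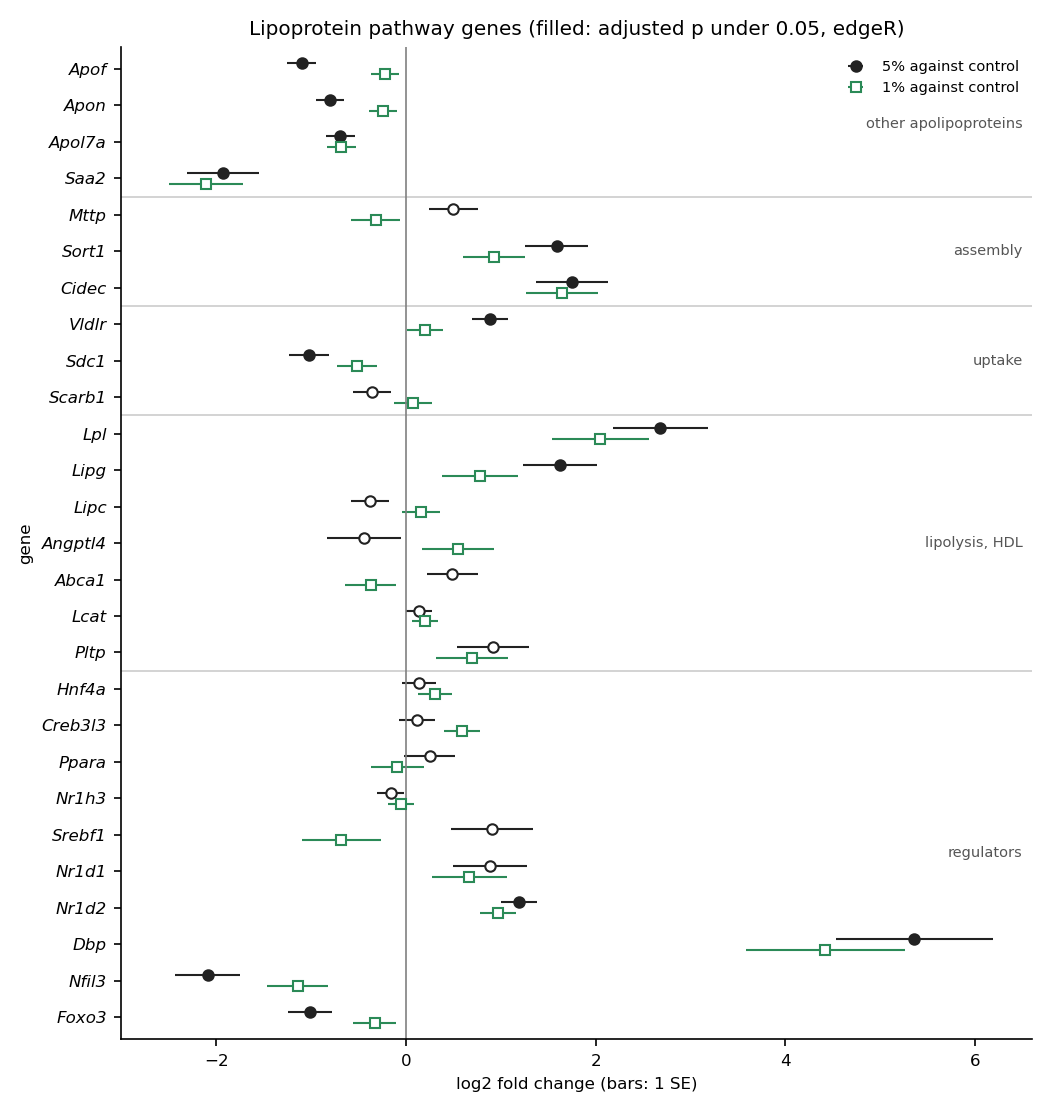
Log2 fold changes of lipoprotein pathway genes for 5% and 1% oil against control, with bars of 1 SE and filled symbols where edgeR's adjusted p was under 0.05. Apof, Apon, Apol7a and Saa2 lie to the left of 0 at both doses. Dbp lies farthest to the right, at 5.36 for 5% oil, from control levels of 0.1567 to 1.1 CPM.

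Markers of other liver cells were measured beside these results. With 5% oil 0 of 14 Kupffer cell, 0 of 10 endothelial, 0 of 10 stellate and 0 of 6 cholangiocyte markers passed by edgeR, with median log2 fold changes of -0.49, -0.36, -0.32 and -0.22. At an unadjusted p under 0.05 there were 1, 2, 1 and 0 of them, against 14.6% of all genes. By edgeR's adjusted p 2.46% of all genes passed with 5% oil. With 1% oil 0 of 14 Kupffer cell markers passed by edgeR, where 0.224% of all genes passed, and the markers' median was -0.72. Of these 14, 12 had an unadjusted p under 0.05, against 11.1% of all genes. Summed Kupffer cell markers were 421.2 to 811.7 CPM in control livers, 210.8 to 478.8 with 1% oil and 199.7 to 527.4 with 5% oil. Of 8 blood cell markers 1 was lower with 5% oil, Alas2 of red cell heme synthesis at -1.17, edgeR adjusted p = 0.0168. Of all genes 1.27% passed as lower, and the median of the list was -0.66. In control livers Alas2 was at 11.79 and 12.3 CPM in females and at 116.5 and 110.4 CPM in males. None of the hemoglobin markers Hba-a1, Hbb-bs and Hbb-bt was higher in both control males than in both females, so Alas2 did not follow them. Summed blood cell markers were 196.1 to 386.8 CPM in control livers, 51.22 to 397.6 with 1% oil and 85.91 to 159.4 with 5% oil. The 1 tested pancreas marker, Cela1, was lower with 5% oil at -1.18, edgeR adjusted p = 0.038, and 3 of 7 pancreas markers had no read in any library. Fabp2, the 1 tested intestinal marker, was lower with 5% than with 1% oil at -0.99, edgeR adjusted p = 0.0468. The hepatocyte markers had a median log2 fold change of -0.45 with 5% oil, against 0.01 over all genes. Of these 12, 8 had an unadjusted p under 0.05, against 14.6% of all genes. The part of these markers in the members' values was not tested.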

How the data were processed

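Poly(A) RNA from 12 livers was sequenced with a stranded kit from RNA with an integrity number over 7, per the labels' protocols. The submitters' processing notes name kallisto, edgeR, limma and the build GRCm39, with no versions or roles, and whether counting used strand is not given in the sources used here. The deposited gene and transcript tables hold estimated counts. The authors' deposited CPM table covers 11339 genes, and their deposited table of 261 genes gives log2 fold changes with p-values, raw and adjusted, with no contrast named. Signal values per library in that deposited table, which the authors made by an unstated adjustment, were used in no test. Gene symbols matched 48845 of 49398 IDs. Transcript lengths came from GENCODE M21.

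Rounded estimated counts entered edgeR 4.0.16 under R 4.3.3. Of all genes, 13814 passed filterByExpr, given diet and sex as 6 groups. Libraries were scaled by TMM, and diet and sex were the terms of the robust quasi-likelihood model, which took in all 12 livers. The threshold was a Benjamini-Hochberg adjusted p of 0.05 over all tested genes. The SE of a log2 fold change is its size over the root of the test's F. Other settings were other scalings and filters, DESeq2 1.42.0, limma 3.58.1, transcript sums, the deposited CPM on the log2(CPM + pseudocount) scale with a pseudocount of 0.5 or 5, other model terms, and each library left out. Named genes were the 10 members, up to 4 genes per pathway list with the smallest p in 5% and in 1% oil against control, and 18 set genes. Ppargc1a, Lman1, Dgat2, Pdia4, Alas2 and Cela1 were named after their values were seen, as was the choice of the Apoe and Apoc3 transcripts. A few genes of these lists are not reported here. Members and lists were chosen with earlier results of these data known. The design text speaks of 6 samples per diet, and 12 libraries were analysed. The labels do not say that animals were housed apart. The p-values set each difference against the spread between these livers, taken as independent. Intervals, at 95%, give the uncertainty of 1 gene's estimate from its SE and are not adjusted over genes.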

Additional observations from a re-analysis of the deposited data

Results flagged for a closer look

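In groups of 4 livers, a highest or lowest value was marked where its gap to the nearest other value exceeded Dixon's 95% critical share of the group's range, which chance does for about 1 in 20 groups. Of 30 groups (10 genes in 3 diets) 2 were marked. Apoa5 in control N979 stood at 1066 CPM, with the other controls at 667.9 to 703.7, and N979 is also the library with the high ribosomal RNA share. Apoa4 in the 1% liver N971 stood at 355.8 CPM, with the other 1% livers at 69.65 to 112.5. By edgeR no test of a difference between the sexes passed for a member, while DESeq2 called Apob and Apoc3 between the sexes and Apoc2 for the sex difference in the 5% response.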

How the results depend on the processing

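Over 1900 member values under other settings, 1806 kept their side of the threshold, 58 lost a call, 36 gained one and 0 called values changed sign, while 101 values that were never past it did. No paired analysis was possible because the animal numbers are not shared between groups. With 5% oil against control the count of members called was 1 instead of 2 with upper quartile factors, library totals, limma voom, transcript sums, limma on the deposited CPM at either pseudocount, no sex term, 6 groups, no robust option, and without N979 and N988. With 1% oil against control it was 3 instead of 0 with no filter and without N979 and N988, and 1 with DESeq2 and with the Malat1 and Neat1 share as a covariate. With 5% against 1% oil it was 0 instead of 1 with library totals, no sex term and the Apob ratio as a covariate, 2 with the Malat1 and Neat1 covariate, 3 with DESeq2 and without N979 and N988, and 4 with no filter. For the dose trend it was 1 instead of 2 with library totals, limma on the deposited CPM at either pseudocount, no sex term and the Malat1 and Neat1 covariate, and 0 without N979 and N988. Between the sexes it was 4 instead of 0 with no filter, 2 with DESeq2, and 1 with library totals, limma on the deposited CPM at either pseudocount, both covariates, and without N979 and N988. For the sex difference in the 5% response it was 1 instead of 0 with no filter and with DESeq2. Leaving out each library in turn gave 0 to 2 members for 5% against control, 0 to 1 for 1% against control, 0 to 2 for 5% against 1%, 0 to 2 for the trend, 0 to 2 between the sexes and 0 for both sex differences. With no filter Apoa4 in 1% oil against control had an edgeR adjusted p of 5.28e-15, against 0.276 with the filter, at the same estimate of -1.92. Calls gained with no filter therefore need caution. The causes of these changes were not tested. The Apob covariate and the removal of both N979 and N988 were chosen after seeing the data. Over all genes 5% against control gave 340 calls, 749 with DESeq2, 1011 with no filter (25400 genes), 107 with no sex term, and 138 to 479 with a library left out (138 without N976). With 4 livers per diet, members whose intervals held 0 could not be told from no difference. Some intervals left out 0 where the adjusted p did not pass, as for Apom with 1% oil (-1.41 to -0.29).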
